A study of Homo sapiens with 18 samples.

Results

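A group of laminin chains, together with the nidogens, were followed in RNA sequencing of 3 human MCF10 breast epithelial lines. They were chosen by gene symbol: LAMA1, LAMA2, LAMA4 and LAMA5 (alpha chains), LAMB1 and LAMB2 (beta chains), LAMC1 (a gamma chain), and NID1 and NID2 (nidogens). All 9 were among the 35933 genes with values. MCF10A became immortal spontaneously in culture of benign breast tissue and forms no tumours, MCF10AT1 was made from it with a mutated HRas, and MCF10CA1H descends from MCF10AT1 through serial xenografts in mice. Each line was present as 3 control libraries, from cells given a negative control CRISPR construct, and 3 libraries labelled METTL3 knockdown, from cells given a CRISPR construct against exon 1 of METTL3, which makes 18 libraries in 6 groups. METTL3 is the catalytic subunit of the complex that writes m6A, a methylated adenosine, on RNA. Every group received Cas9 with an mCherry marker, was sorted and was then grown from a single cell, so that each group is 1 clone and clone and condition cannot be told apart. All cells were grown in the same medium with horse serum, insulin, hydrocortisone, cholera toxin and epidermal growth factor. The replicates a, b and c of a group are not stated to be separate cultures, so p-values measure the spread between these libraries, which may be technical.

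A laminin is a trimer of 1 alpha, 1 beta and 1 gamma chain. Many laminins, though not all, are cross-shaped and polymerize into the sheet on which a basement membrane is built. The alpha chain carries the domains that bind integrins and dystroglycan, and chains of the beta and gamma families must pair with each other before an alpha chain joins and the trimer is secreted. Nidogens bind the laminin gamma-1 chain and type IV collagen and so link both networks. In the breast, the basement membrane separates the epithelium from the stroma, and laminins anchor the basal epithelial cells to it.

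METTL3, the target of the construct, was at 752, 686 and 459 normalized counts (gene values that the authors scaled between libraries with DESeq2) in the MCF10A control libraries and at 939, 981 and 510 in those labelled knockdown. In MCF10AT1 it was at 968, 1016 and 805 in control and at 816, 752 and 902 in labelled knockdown. MCF10CA1H had 1022, 1102 and 1280 in control and 825, 745 and 843 in labelled knockdown. The RNA was lower beyond the test in MCF10CA1H only (log2 fold change -0.49, SE 0.12, adjusted p = 0.0234, limma), while the labels of the other lines cannot be checked by METTL3 RNA and the groups are called labelled knockdown throughout. The effect on METTL3 RNA itself did not pass the test of a difference between any 2 lines (adjusted p = 0.318, 0.2 and 0.564). By Western blot the authors report less METTL3 protein in the knockdown clones of every line, substantially so in MCF10AT1 and moderately in MCF10CA1H. They also report significantly lower m6A in those lines and a decrease short of significance in MCF10A. By real-time PCR the authors report METTL3 RNA as lower in the knockdown clones too, with a smaller effect than on the protein. In the sequencing its mean was higher in MCF10A labelled knockdown (809.9) than in control (632.5), with overlap. METTL3 RNA in these libraries therefore does not rank the lines by their loss of the protein. The epithelial identity of the cells was checked with 10 breast epithelial markers, whose summed level was between 109848 and 349265 in the controls and between 272642 and 451733 in labelled knockdown of MCF10A and MCF10CA1H. In labelled knockdown of MCF10AT1 the sum was only 26534 to 55472, with CDH1 (E-cadherin) at 11.6, 31.7 and 79.2 against 3475, 2105 and 6138 in its control. These MCF10AT1 libraries thus did not carry the defining epithelial marker at the level of their control.

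In genome build hg38 (GENCODE release 44) LAMA1 (ENSG00000101680) lies at chr18:6941742-7117797 on the minus strand and LAMA2 (ENSG00000196569) at chr6:128883138-129516566 on the plus strand. LAMA4 (ENSG00000112769) lies at chr6:112107931-112254939 and LAMA5 (ENSG00000130702) at chr20:62307955-62367312, both on the minus strand. LAMB1 (ENSG00000091136) lies at chr7:107923799-108003213 and LAMB2 (ENSG00000172037) at chr3:49121114-49133118, both on the minus strand. LAMC1 (ENSG00000135862) lies at chr1:183023420-183145592 on the plus strand. NID1 (ENSG00000116962) at chr1:235975830-236065109 and NID2 (ENSG00000087303) at chr14:52004809-52069059 are on the minus strand. The members therefore do not form a cluster, and their values are those of whole genes summed over annotated transcripts. Antisense genes overlap LAMA4, LAMA5 and LAMC1, and a pseudogene copy of LAMB2 is annotated. LAMA4-AS1, LAMA5-AS1 and LAMC1-AS1 reached 29.5, 45.5 and 9.45 normalized counts at the highest in any library, and LAMB2P1 reached 20.6. Whether strand was used in counting is not given in the sources used here, so small shares of these genes' values cannot be told apart.

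Sequence before the RefSeq transcription start is shown for LAMA4, LAMC1 and LAMA5. LAMA4 and LAMC1 rose by the most in MCF10AT1 apart from LAMA1, while LAMA5, the main alpha chain, did not pass the test there. The 250 bases before the RefSeq start (build GRCh38.p14) were found for 8 of the 9 members, LAMA1 being the one without an entry. For LAMA4, where alternative first exons lie in the window, only the longest stretch outside annotated exons is printed, at chr6:112254723-112254785 on the minus strand. The LAMA4 window, chr6:112254568-112254817, lies wholly inside the gene as GENCODE places it (to 112254939), and 187 of its 250 bases are annotated exon. The printed stretch is thus downstream of the GENCODE start of the gene. The window of LAMC1 is chr1:183023170-183023419 on the plus strand and that of LAMA5 is chr20:62367313-62367562 on the minus strand. Capitals mark matches on either strand to a GC box (GGGCGG) or an E-box of the CACCTG kind, and no position was shared by both motifs. The stretch of LAMA4 holds neither.
LAMA4: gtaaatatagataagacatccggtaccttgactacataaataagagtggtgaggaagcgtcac
LAMC1: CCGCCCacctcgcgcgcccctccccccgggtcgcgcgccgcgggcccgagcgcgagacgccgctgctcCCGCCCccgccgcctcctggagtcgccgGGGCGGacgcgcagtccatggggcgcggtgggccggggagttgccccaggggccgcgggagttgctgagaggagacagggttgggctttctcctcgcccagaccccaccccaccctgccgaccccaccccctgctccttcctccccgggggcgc
LAMA5: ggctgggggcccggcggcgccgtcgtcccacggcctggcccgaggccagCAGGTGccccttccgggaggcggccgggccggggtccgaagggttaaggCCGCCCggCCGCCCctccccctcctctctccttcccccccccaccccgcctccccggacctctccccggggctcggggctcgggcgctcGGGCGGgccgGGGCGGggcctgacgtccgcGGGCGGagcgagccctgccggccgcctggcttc
A GC box was present in 41.3% of all 27305 promoter windows of that length and the CACCTG E-box in 17.5%. LAMA5 held 5 GC boxes, LAMB1 4, LAMC1 and NID2 3 each, LAMB2 and NID1 1 each, and LAMA2 and LAMA4 none. LAMA5 alone held the E-box. None of the 8 windows held an AP-1 site (TGANTCA, in 6.8% of all windows) or a TATA box (TATAAA, in 11.4%). The LAMA4 window was 48.4% GC and that of LAMC1 79.6%, where the median of all windows was 57.6% with quartiles of 45.6% and 67.6%. The windows of LAMA4 and LAMC1, both called in MCF10AT1, thus differed in composition, although most of the LAMA4 window is annotated exon and the LAMC1 window holds none. The motif GGACT, a common form of the m6A consensus, occurred 0.76 (LAMC1) to 1.58 (LAMB2) times per kilobase of the canonical transcript, beside a median of 0.92 over 15887 genes with quartiles of 0.51 and 1.41, and 1.11 times per kilobase in LAMA4.

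The members spanned a wide range of levels. To compare genes, normalized counts were divided by coding length. In MCF10A control LAMB1 was highest, at 1848 ± 253 per coding kilobase (SD, n = 3), followed by LAMC1 at 678 ± 142, LAMB2 at 395 ± 159 and LAMA5 at 311 ± 49.9. LAMC1 overlapped LAMB2 in range, and LAMB2 overlapped LAMA5. LAMA4 (17.6 ± 10.01), LAMA1 (8.83 ± 1.72) and LAMA2 (4.01 ± 0.82) were far lower, and both nidogens were below 1 on average. LAMB1 was also the highest in MCF10AT1 control (2010 ± 449), with LAMB2 (1291 ± 541) overlapping it. Per coding kilobase, LAMC1 (970 ± 17.1) was above LAMB1 (876 ± 58.0) in MCF10CA1H control without overlap. Their mean normalized counts there were close (4684 and 4695). The canonical transcript of LAMC1 has 7929 bases (4827 coding) and that of LAMB1 5650 (5358 coding). The order of LAMC1 and LAMB1 in that group thus rests on the use of coding length. LAMB1, LAMB2, LAMC1 and LAMA5 were thus the main members at the RNA level in all 3 controls, and LAMA1, LAMA2, NID1 and NID2 were minor ones. The plot of the members by library shows these values and those of the labelled knockdown libraries.

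**Figure D1:**
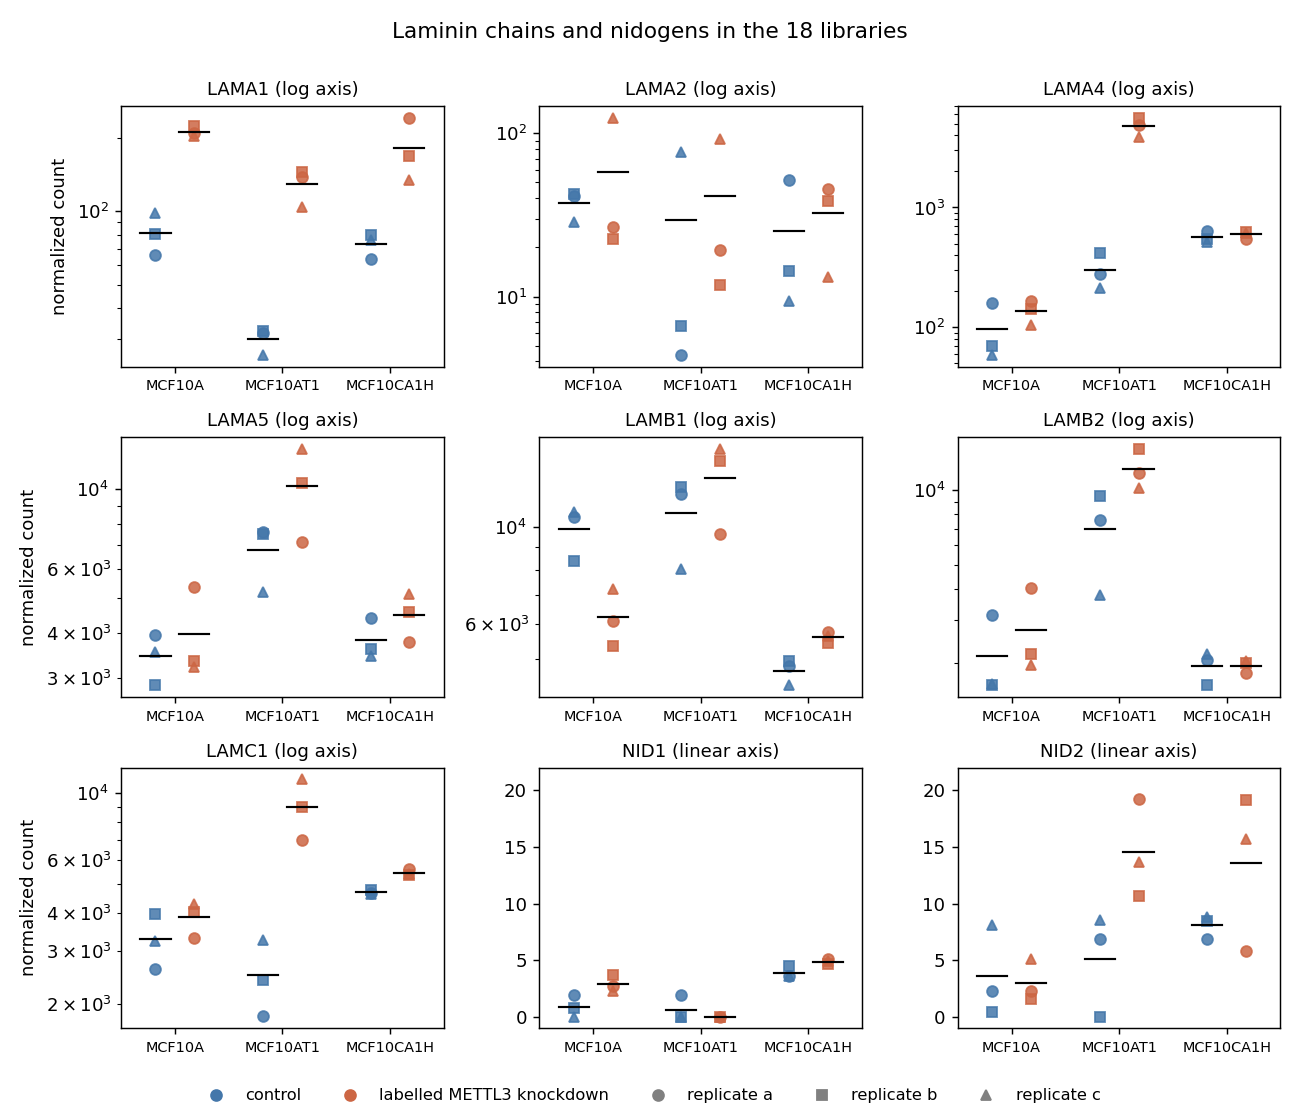
Normalized counts of the 9 members in the 18 libraries, with control in blue and labelled METTL3 knockdown in orange, symbols for replicates a, b and c, and a bar at the mean of 3. LAMA4 and LAMC1 stand far above control in MCF10AT1, LAMA1 lies above control in all 3 lines, and NID1 and NID2 stay below 20 (linear axes, the others are log axes).

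Libraries labelled knockdown were first compared with control within each line, which asks how the members differ between the METTL3 construct and the negative control in the same background. LAMA1 was higher in all 3 lines and LAMA4 and LAMC1 in MCF10AT1 only. In MCF10A 1 of the 7 members tested passed the adjusted p threshold of 0.05, where 2.65% of 15416 genes did (1.16% higher and 1.49% lower). MCF10AT1 gave 3 of 7, beside 13.0% of 16050 genes (7.07% higher and 5.96% lower). For MCF10CA1H it was 1 of 8, beside 12.8% of 15127 genes (7.91% higher and 4.85% lower). All 5 calls were of members with higher values in labelled knockdown. The members' median log2 fold change was 0.26, 0.97 and 0.24 in MCF10A, MCF10AT1 and MCF10CA1H, where that of all genes was -0.003, 0.021 and -0.019. After scaling to equal sums, the share of called genes that were higher in MCF10CA1H went from 62.0% to 50.2%, and the median of all genes in MCF10AT1 went from 0.021 to -0.147, with the same 3 members called there. In bulk libraries, fewer cells of a type and less RNA per cell cannot be told apart.

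**Figure D2:**
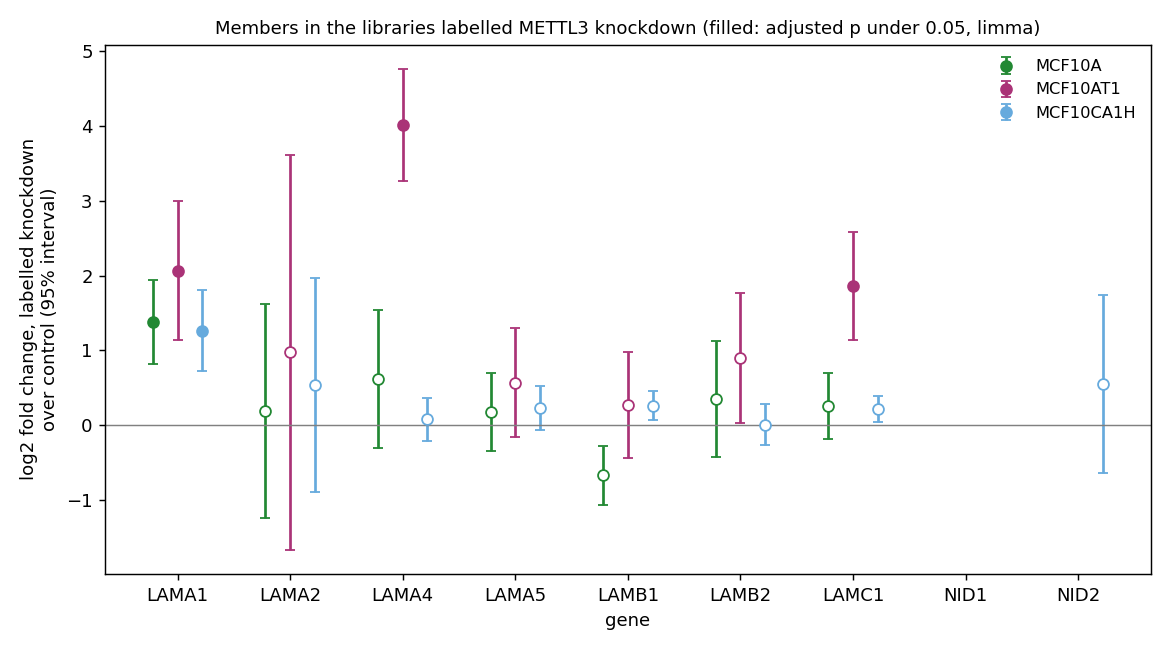
Log2 fold change of each member, labelled METTL3 knockdown over control, in MCF10A (green), MCF10AT1 (purple) and MCF10CA1H (light blue), with 95% intervals from limma and filled points where adjusted p was under 0.05. LAMA4 in MCF10AT1 (4.02) and LAMC1 in MCF10AT1 (1.86) lie apart from the same genes in the other lines, and LAMA1 is filled in all 3. NID1 was not tested, and NID2 was tested in MCF10CA1H only.

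Among the alpha chains, LAMA1, the chain of laminin-111 that is best known from embryonic basement membranes, was the member called in every line. In MCF10A it was at 66.2, 80.4 and 97.8 in control and at 208, 223 and 203 in labelled knockdown. In MCF10AT1 the values were 31.6, 32.1 and 25.8 in control and 138, 145 and 104 in labelled knockdown. In MCF10CA1H they were 63.7, 79.6 and 76.0 in control and 241, 168 and 134 in labelled knockdown. In each line the lowest labelled knockdown library was above the highest control library, although LAMA1 remained a low-level RNA. The log2 fold change was 1.38 (SE 0.24, adjusted p = 0.0294, limma) in MCF10A, 2.07 (SE 0.41, adjusted p = 0.0123) in MCF10AT1 and 1.26 (SE 0.24, adjusted p = 0.00819) in MCF10CA1H. These are 2.6-, 4.19- and 2.4-fold on the scale of normalized count plus 1. The effect did not pass the test of a difference between any 2 lines (adjusted p = 0.213, 0.927 and 0.157). The call rested on few libraries in MCF10A: the adjusted p was 0.102 without control b, and 0.122, 0.0993 and 0.113 without labelled knockdown a, b and c. In MCF10AT1 it was 0.051 without control a, and 0.0509 and 0.0869 without labelled knockdown a and b, while in MCF10CA1H the call held without each of the 6 libraries. With no filter on low values the adjusted p was 0.0759 in MCF10A and 0.104 in MCF10CA1H. The log2 fold change stayed between 1.24 and 1.52 in MCF10A whichever library was left out or setting used.

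LAMA4, the alpha chain of the laminins of blood vessels and other mesenchymal tissue, had the largest change of the members. In MCF10AT1 it was at 275, 420 and 212 normalized counts in control and at 4857, 5606 and 3846 in labelled knockdown. Every labelled knockdown library was far above every control library, a log2 fold change of 4.02 (SE 0.33, adjusted p = 0.000192, limma), or 16.2-fold. The call held with each of the 6 libraries left out. MCF10A had 159, 70.2 and 58.9 in control and 164, 142 and 104 in labelled knockdown, and MCF10CA1H had 635, 544 and 511 in control and 546, 630 and 609 in labelled knockdown. Both pairs of groups overlapped, with log2 fold changes of 0.62 (95% interval -0.30 to 1.54) and 0.08 (-0.21 to 0.37). No library outside MCF10AT1 labelled knockdown was above 635 for LAMA4.

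LAMA5, the alpha chain of adult epithelial basement membranes, had the highest mean of the 4 alpha chains per coding kilobase in every group. On that scale LAMA4 exceeded it in labelled knockdown a and b of MCF10AT1. In MCF10AT1 LAMA5 was at 7616, 7533 and 5184 in control and at 7165, 10431 and 12961 in labelled knockdown. MCF10A had 3955, 2859 and 3530 in control and 5358, 3344 and 3212 in labelled knockdown, and MCF10CA1H had 4402, 3618 and 3461 against 3764, 4574 and 5134. The groups overlapped in all 3 lines, and the log2 fold changes of 0.57 (-0.16 to 1.29) in MCF10AT1, 0.18 (-0.35 to 0.70) in MCF10A and 0.23 (-0.07 to 0.52) in MCF10CA1H did not pass the test. LAMA2, the alpha chain of muscle and nerve basement membranes, had replicates that spread across both groups of each line. In MCF10AT1 it was at 4.4, 6.55 and 77.3 in control and at 19.2, 11.8 and 92.8 in labelled knockdown, so that replicate c was the highest in both groups. MCF10A had 41.2, 42.8 and 28.8 against 26.7, 22.5 and 125, and MCF10CA1H had 52.1, 14.4 and 9.35 against 45.9, 38.3 and 13.1. Without labelled knockdown c, the log2 fold change in MCF10A turned from 0.19 to -0.58.

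The make-up of the alpha chain RNAs shifted with LAMA4. In MCF10AT1 control LAMA4 was 8.12% ± 1.75 (SD, n = 3) of the sum of the 4 alpha chains per coding kilobase and LAMA5 was 90.8% ± 1.7. In labelled knockdown LAMA4 was 48.7% ± 10.4 and LAMA5 50.3% ± 10.3, with no overlap between control and labelled knockdown libraries for either share. Coding length favours LAMA4, whose canonical transcript has 7228 bases (5469 coding), over LAMA5 with 11426 (11085 coding). The shares of LAMA4 were 4.99% ± 2.12 and 6.15% ± 1.01 in MCF10A and 22.5% ± 0.36 and 20.3% ± 1.29 in MCF10CA1H, control first. LAMA1 held 2.65% ± 0.74 in control and 5.8% ± 1.41 in labelled knockdown of MCF10A, and 1.76% ± 0.39 and 3.78% ± 1.6 in MCF10CA1H, with no overlap in either line. An exact permutation test of 3 against 3 libraries cannot go below p = 0.1, so none was run on the alpha chain shares.

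**Figure D3:**
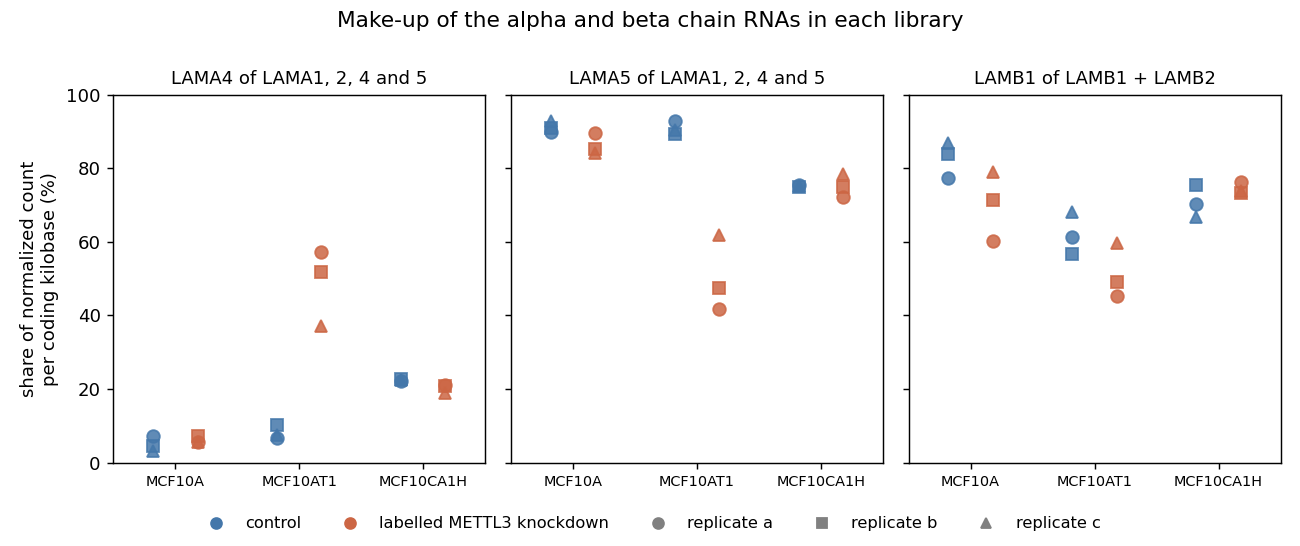
Share of each library's normalized counts per coding kilobase held by LAMA4 and by LAMA5 among LAMA1, LAMA2, LAMA4 and LAMA5, and by LAMB1 among both beta chains, in percent, with 1 point per library. LAMA4 lies at 37.1% to 57.2% in MCF10AT1 labelled knockdown and at 6.79% to 10.1% in its control, while the share of LAMB1 is lower in labelled knockdown of MCF10A and MCF10AT1 on average, with overlap.

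Of the beta chains, LAMB1, the widespread beta chain of laminin-111 and laminin-511, was lower in MCF10A labelled knockdown without passing the main test. It was at 10543, 8348 and 10818 in MCF10A control and at 6110, 5351 and 7238 in labelled knockdown. The groups did not overlap, and the log2 fold change was -0.67 (SE 0.17, adjusted p = 0.0892, limma). With the replicate letter as a block, which pairs the libraries of this line, the adjusted p was 0.0181 and 2 members were called in place of 1. The block also raised the share of all genes called in MCF10A from 2.65% to 7.60%. MCF10AT1 had 11932, 12374 and 8009 in control and 9667, 14165 and 15121 in labelled knockdown, which overlapped. MCF10CA1H had 4812, 4930 and 4343 against 5768, 5430 and 5646, which did not overlap, with a log2 fold change of 0.26 (SE 0.09, adjusted p = 0.0817). The mean of LAMB1 in labelled knockdown was thus below control in MCF10A and above it in the other lines.

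LAMB2, the beta chain of synaptic and kidney basement membranes, was at 7610, 9505 and 3774 in MCF10AT1 control and at 11738, 14767 and 10256 in labelled knockdown. The log2 fold change was 0.90 (SE 0.38, adjusted p = 0.168, limma). With the replicate block the adjusted p of LAMB2 was 0.0292 (limma), so that 4 members were called in place of 3. The block also raised the share of all genes called there from 13.0% to 24.5%. A joint fit of 18 libraries also called LAMB2 (adjusted p = 0.0488, limma) and 4 members in all, beside 32.4% of all genes. The groups did not overlap, and control c was the lowest of the 6 libraries. In MCF10A LAMB2 was at 3116, 1632 and 1640 against 4041, 2168 and 1956, with replicate a highest in both groups. In MCF10CA1H it was at 2049, 1622 and 2180 against 1820, 1999 and 2032, a log2 fold change of 0.01 (-0.26 to 0.28). LAMB1 made up 82.7% ± 4.9 of the beta chain RNA per coding kilobase in MCF10A control and 70.2% ± 9.3 in labelled knockdown, 62.0% ± 5.74 and 51.4% ± 7.47 in MCF10AT1, and 70.8% ± 4.34 and 74.3% ± 1.57 in MCF10CA1H. Taken over groups, these shares overlapped between control and labelled knockdown in all 3 lines. Between libraries of the same letter, the LAMB1 share was lower in labelled knockdown in 3 of 3 pairs in MCF10A, with differences of -8.07 to -16.95 percentage points, and in 3 of 3 in MCF10AT1, with differences of -7.59 to -15.89. An exact permutation of signs gave p = 0.25 in each, the smallest that 3 pairs allow, so it cannot decide whether the share differed. The pairing was inferred from these data and is uncertain for a and b in MCF10AT1. In MCF10CA1H, where the letters do not pair the libraries, the share was lower in 1 of 3, with differences of -2.15 to 6.94.

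LAMC1, the gamma chain shared by most laminins, was at 1823, 2404 and 3272 in MCF10AT1 control and at 6967, 8951 and 11069 in labelled knockdown. The lowest labelled knockdown library (6967) was thus above the highest control library (3272). The log2 fold change was 1.86 (SE 0.31, adjusted p = 0.00604, limma), or 3.64-fold, and the call held with each library left out. In MCF10A LAMC1 was at 2610, 3980 and 3227 against 3309, 4041 and 4299, which overlapped. In MCF10CA1H it was at 4647, 4778 and 4626 against 5598, 5361 and 5387, with no overlap and a log2 fold change of 0.22 (SE 0.08, adjusted p = 0.107). The beta chains LAMB1 and LAMB2, the partners of LAMC1 in the trimer, had log2 fold changes of 0.27 and 0.90 in MCF10AT1. In MCF10CA1H they had 0.26 and 0.01, and neither was called in the main test of either line.

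The nidogens were near the floor of the table. NID1 was at 1.9, 0.77 and 0 in MCF10A control and at 2.75, 3.73 and 2.28 in labelled knockdown, and at 3.64, 4.47 and 3.58 against 5.08, 4.63 and 4.9 in MCF10CA1H. In MCF10AT1 it was at 1.9 in control a and listed at 0 in the other 5 libraries. NID2 was at 6.88, 0 and 8.52 in MCF10AT1 control and at 19.3, 10.7 and 13.7 in labelled knockdown, at 2.32, 0.42 and 8.1 against 2.25, 1.53 and 5.13 in MCF10A, and at 6.89, 8.46 and 8.85 against 5.85, 19.2 and 15.7 in MCF10CA1H. NID2 entered only the MCF10CA1H fit, with a log2 fold change of 0.55 (-0.64 to 1.74, adjusted p = 0.554, limma). NID1 passed no filter on the mean, and neither gene could be compared with precision at these levels.

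Whether the effect differed between lines was tested by interaction contrasts in a fit of all 18 libraries. LAMA4 rose more in MCF10AT1 than in MCF10A, by 3.39 on the log2 scale (SE 0.46, adjusted p = 4.72e-05, limma), and its effect in MCF10CA1H was lower than that in MCF10AT1 by -3.93 (SE 0.46, adjusted p = 1.02e-05). For LAMC1 the differences were 1.60 (SE 0.30, adjusted p = 0.00112) and -1.65 (SE 0.30, adjusted p = 0.00106). LAMB1 had a higher effect in MCF10AT1 than in MCF10A by 0.94 (SE 0.28, adjusted p = 0.0248), a call not kept after scaling to equal sums (0.69, adjusted p = 0.0543) or with no filter on low values (adjusted p = 0.0514). Its adjusted p was also 0.0527 without MCF10A control a, 0.061 without MCF10A control c, 0.0655 without MCF10A labelled knockdown b and 0.0659 without MCF10AT1 labelled knockdown b. In all, 3 of 7 members were called for MCF10AT1 against MCF10A, where 21.6% of genes were, and 2 of 7 for MCF10CA1H against MCF10AT1, where 18.2% were. For MCF10CA1H against MCF10A limma called none of 7, beside 5.34% of genes, and 1 member (LAMB1, difference 0.93, adjusted p = 0.0695) had an unadjusted p under 0.05. With the replicate block, LAMB2 was also called for MCF10CA1H against MCF10AT1 (-0.89, adjusted p = 0.0218), where the main adjusted p was 0.221 (limma). The block raised the share of all genes called there from 18.2% to 24.8%. The letters do not pair the libraries of MCF10CA1H, and the pairing of a and b in MCF10AT1 is uncertain. Scaling to equal sums moved the share of called genes with a higher effect in MCF10AT1 than in MCF10A from 51.6% to 39.6%.

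The control clones of the 3 lines were compared to place the members without the METTL3 construct, in 3 contrasts that share libraries. LAMA4 was higher than in MCF10A by 1.73 on the log2 scale in MCF10AT1 (SE 0.39, adjusted p = 0.0137, limma) and by 2.67 in MCF10CA1H (SE 0.39, adjusted p = 0.00112). LAMA5 and LAMB2 were higher in MCF10AT1 than in MCF10A by 0.97 (adjusted p = 0.013) and 1.68 (adjusted p = 0.0119), and lower in MCF10CA1H than in MCF10AT1 by -0.81 (adjusted p = 0.026) and -1.75 (adjusted p = 0.00971). Both were thus highest in the control of the middle line. LAMA1 had the opposite order, lower in MCF10AT1 than in MCF10A by -1.41 (adjusted p = 0.0105) and higher in MCF10CA1H than in MCF10AT1 by 1.27 (adjusted p = 0.0157). LAMB1 was lower in MCF10CA1H than in MCF10A by -1.07 (adjusted p = 0.0043) and than in MCF10AT1 by -1.17 (adjusted p = 0.00471). LAMC1 was higher in MCF10CA1H than in MCF10AT1 by 0.95 (adjusted p = 0.0218). LAMA2 was called in none of these contrasts, and the nidogens were not tested. In total 4 of 7 members were called for MCF10AT1 against MCF10A, where 28.1% of genes were, 2 of 7 for MCF10CA1H against MCF10A, where 37.8% were, and 5 of 7 for MCF10CA1H against MCF10AT1, where 21.8% were.

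Single control libraries or the filter on low values decided some of these calls. With no filter the adjusted p was 0.0509 for LAMB2 in MCF10AT1 against MCF10A, and 0.0544 for LAMA5 and 0.0547 for LAMC1 in MCF10CA1H against MCF10AT1. For MCF10AT1 against MCF10A, the adjusted p was 0.0583 for LAMA4, 0.061 for LAMA5 and 0.0535 for LAMB2 without MCF10A control b, and 0.0555 for LAMA4 and 0.0526 for LAMB2 without MCF10A control c, while LAMA5 had 0.0527 without MCF10AT1 control a. Without MCF10AT1 control c, LAMA2 (-2.57, adjusted p = 0.0119) and LAMC1 (-0.62, adjusted p = 0.0291) were called in addition. Its correlation of log2 values with control b, 0.874, was the lowest between replicates of any group, and it held the highest LAMA2 and LAMC1 and the lowest LAMA5, LAMB1 and LAMB2 of its group. For MCF10CA1H against MCF10AT1, LAMA5 and LAMC1 were not called without MCF10AT1 control a (adjusted p = 0.0924 and 0.0768) or without MCF10CA1H control a (0.0531 and 0.0725), b (0.0976 and 0.0785) or c (0.101 and 0.0707). LAMA1 was not called there without MCF10CA1H control b (adjusted p = 0.0715) or c (0.0646). LAMA4 was called there without MCF10A control a (0.95, adjusted p = 0.0454) and in a joint fit of 18 libraries (adjusted p = 0.037), and LAMC1 was called for MCF10CA1H against MCF10A without MCF10AT1 control c (0.54, adjusted p = 0.0351).

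LAMA3 and LAMB3, the alpha and beta chains of the laminin of hemidesmosomes, were measured beside the members. In MCF10AT1 labelled knockdown LAMA3 fell by 2.90 on the log2 scale (adjusted p = 0.000814, limma), while LAMB3 (-1.07, adjusted p = 0.108) did not pass. In MCF10CA1H both rose, LAMA3 by 1.71 (adjusted p = 5.3e-05) and LAMB3 by 1.43 (adjusted p = 0.0003), where LAMA1 was the one member called. In MCF10A neither passed, with log2 fold changes of -1.48 (adjusted p = 0.0952) and -1.35 (adjusted p = 0.0649). LAMA3 thus had opposite directions in MCF10AT1 and MCF10CA1H. LAMB4 and LAMC3 were too low to be tested.

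Of 12 laminin receptor genes, 3 were called in MCF10AT1 (2 higher and 1 lower), 6 in MCF10CA1H (5 higher and 1 lower) and none in MCF10A, where limma gave 6 with an unadjusted p under 0.05. The medians were -0.16, 0.34 and -0.49. Of all genes, 13.0%, 12.8% and 2.65% were called in these lines. The share of all genes with an unadjusted p under 0.05 is not given here, so unadjusted counts cannot be set against it. In MCF10AT1 the integrin alpha subunits ITGA7 and ITGA3, which pair with beta-1 to bind laminin, were higher by 3.88 (adjusted p = 0.000773) and 2.23 (adjusted p = 0.011), and the heparan sulfate proteoglycan SDC1 fell by 3.48 (adjusted p = 0.000779). In MCF10CA1H the largest were ITGA3 (0.59, adjusted p = 0.00576), ITGB4, the beta subunit of hemidesmosomes (0.58, adjusted p = 0.01), and SDC1 (0.57, adjusted p = 0.0023). ITGA3 was called higher in both lines, while SDC1 had opposite directions. After scaling to equal sums 3 receptors were higher and 1 lower in MCF10CA1H, and no called receptor changed sign.

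Basement membrane collagens and proteoglycans gave 4 calls of 9 tested in MCF10AT1 (3 higher and 1 lower), 1 of 8 in MCF10CA1H and none of 7 in MCF10A, where 6 had an unadjusted p under 0.05. The medians were 0.19, 0.16 and 0.68. Of all genes, 13.0%, 12.8% and 2.65% were called in these lines, and the share with an unadjusted p under 0.05 is not given here. COL4A1 and COL4A2, the chains of the most widespread type IV collagen, rose by 2.78 (adjusted p = 0.00546) and 2.80 (adjusted p = 0.000785) in MCF10AT1. COL4A3, a chain of a collagen of restricted tissues, was at 63.4, 42.4 and 152 in control and at 0.51, 0 and 1.44 in labelled knockdown (-5.61, adjusted p = 0.0019). The call in MCF10CA1H was of AGRN, the proteoglycan agrin (0.60, adjusted p = 0.0045).

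Partners that bind nidogens or laminins gave 5 calls of 8 tested in MCF10AT1 (3 higher and 2 lower), 3 of 7 in MCF10CA1H (2 higher and 1 lower) and 1 of 6 in MCF10A, with medians of 0.12, -0.00 and 0.42. The shares of all genes called were 13.0%, 12.8% and 2.65%. SPARC, a collagen-binding matricellular protein, was at 108, 27.2 and 39.5 in MCF10AT1 control and at 10620, 7686 and 8125 in labelled knockdown (7.45, adjusted p = 6.66e-05). FBLN2, a fibulin that binds nidogen, was listed at 0 in the 3 control libraries and at 125, 179 and 120 in labelled knockdown (adjusted p = 0.000207). FBLN1, of the same family, rose by 2.99 (adjusted p = 0.00117). In MCF10CA1H SMOC1, a calcium-binding basement membrane protein, fell by 0.74 (adjusted p = 0.00629), TINAGL1 rose by 0.45 (adjusted p = 0.0385) and SPARC rose by 0.42 (adjusted p = 0.0353). PXDN, the peroxidase that crosslinks type IV collagen, was the one call in MCF10A (0.72, adjusted p = 0.0441). The plot of the network partners sets these values of the 3 lines side by side.

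**Figure D4:**
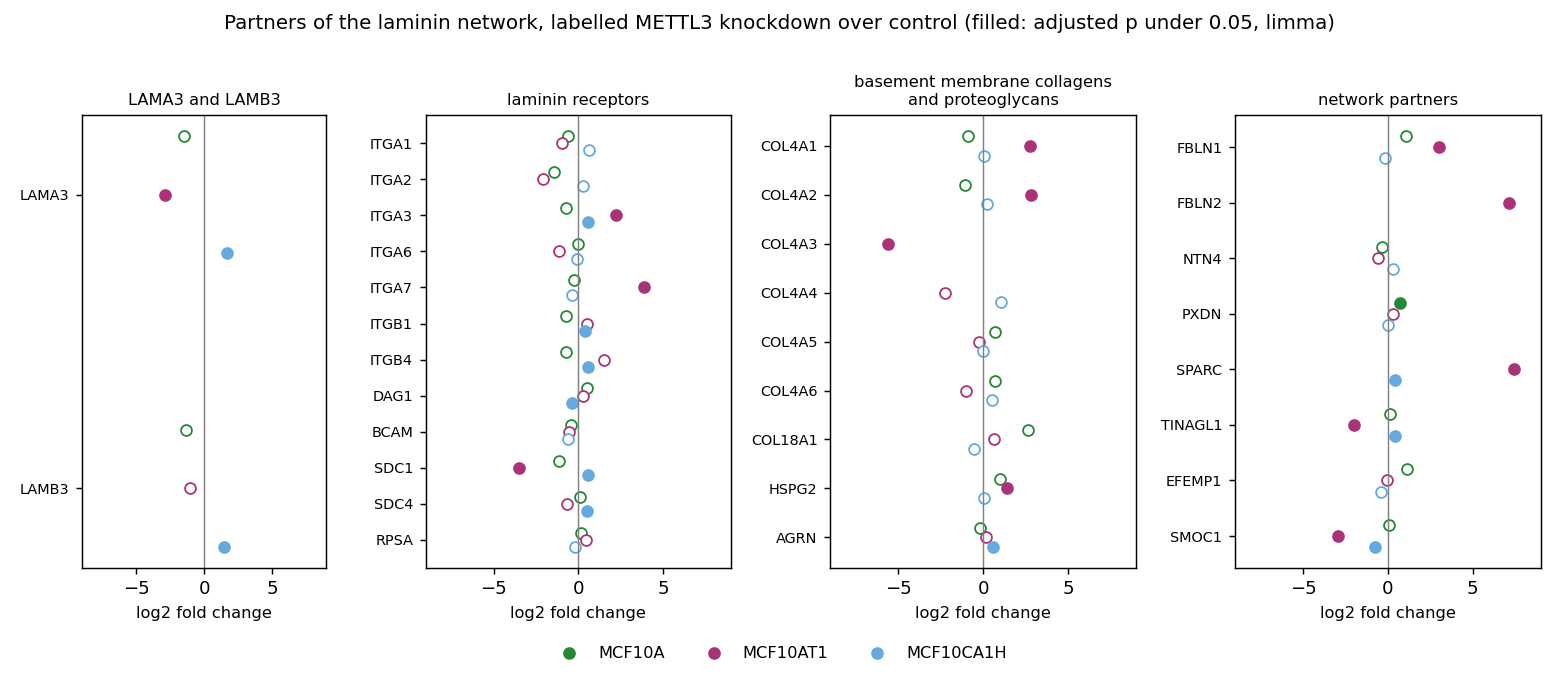
Log2 fold change, labelled METTL3 knockdown over control, of the genes tested in 4 lists (LAMA3 and LAMB3, laminin receptors, basement membrane collagens and proteoglycans, and network partners), in MCF10A (green), MCF10AT1 (purple) and MCF10CA1H (light blue), filled where adjusted p was under 0.05 by limma. The points farthest from 0 are those of MCF10AT1, where SPARC is the highest (7.45) and COL4A3 the lowest (-5.61). LAMA3 and LAMB3 lie below 0 in MCF10A, where neither was called, and in MCF10AT1, and above 0 in MCF10CA1H.

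Markers of other cell types moved with the members in MCF10AT1. Of 10 breast epithelial markers 6 were lower there, beside 5.96% of all genes, with a median of -3.33. The largest changes were in the adhesion proteins CDH1 (-6.79, adjusted p = 0.000474, limma) and EPCAM (-5.16, adjusted p = 3.83e-05) and in the keratin KRT17 (-4.47, adjusted p = 3.83e-05). The keratins KRT18 (means of 33635 in control and 23183 in labelled knockdown) and KRT8 (20061 and 14957) overlapped between groups. Both were the highest of the list in labelled knockdown. TP63 (357 and 559) overlapped too. Of 7 fibroblast or mesenchymal markers tested 3 were higher, beside 7.07% of all genes: THY1 by 9.61, COL3A1 by 8.95 and VIM by 4.09. The summed level of all 10 was 3795 to 5109 in control and 62231 to 74520 in labelled knockdown, most of it VIM at 57647, 70635 and 69297. COL3A1 was at 0 to 2.25 in control and 385 to 1208 in labelled knockdown, and THY1 at 0.87 to 1.91 and 1200 to 2557. The other markers of that list were called in neither direction or not tested, and COL1A2, PDGFRA and LUM averaged under 10 in labelled knockdown.

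Of 7 endothelial markers, whose cell type makes LAMA4, PECAM1 was at 226 to 849 in MCF10AT1 control and 377 to 635 in labelled knockdown, and ERG was listed at 0 in control and at 3.13 to 45.4 in labelled knockdown. CDH5 was listed at 0 in the 3 labelled knockdown libraries, and VWF, KDR, TIE1 and TEK averaged under 10. The endothelial sums, 233 to 867 in control and 385 to 653 in labelled knockdown, overlapped, and so did those of 5 smooth muscle or myoepithelial markers, 927 to 1512 and 950 to 2149. All 3 leukocyte markers in the table were listed at 0 in MCF10AT1 labelled knockdown. The part of these markers in the values of LAMA4 and LAMC1 was not tested.

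Marker sums also separated control from labelled knockdown in the other lines. In MCF10A the epithelial sum was 188061 to 216461 in control and 272642 to 319048 in labelled knockdown, and KRT5 was the one marker called (0.90, adjusted p = 0.0455, limma). The endothelial sum there was 56.1 to 237 and 339 to 536, most of it PECAM1 (means of 84.1 and 458). KDR (18.5 and 2.62) and TEK (18.8 and 2.86) were instead lower on average in labelled knockdown. The median log2 fold change of the 3 endothelial markers tested was -2.47, and none was called. The fibroblast or mesenchymal and the smooth muscle or myoepithelial sums overlapped. In MCF10CA1H the epithelial sum was 323137 to 349265 and 422400 to 451733, and KRT14 (2.15, adjusted p = 7.02e-05), KRT17 (0.71, adjusted p = 0.00256) and KRT5 (0.36, adjusted p = 0.0331) were called higher. The fibroblast or mesenchymal sum was 24964 to 30643 and 30903 to 38534, with FAP (0.96, adjusted p = 0.00302) and DCN (0.87, adjusted p = 0.00544) called higher and COL3A1 lower (-1.22, adjusted p = 0.0343). The smooth muscle or myoepithelial sum was 175 to 208 and 507 to 662, with TAGLN, an actin-binding protein, called higher (2.65, adjusted p = 3.27e-05). The endothelial sum was lower in labelled knockdown, 133 to 168 against 52.7 to 79.1, with PECAM1 called lower (-1.20, adjusted p = 0.0389). The part of these markers in the values of LAMA1, the member called in both lines, was not tested.

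The genes most like each member over the 18 libraries were taken by Pearson's r of log2 values among 12460 genes with a mean of at least 50, as a description over libraries that share lines and clones. They were NQO1 (0.983) and SNHG19 (0.975) for LAMA4, EMC1 (0.951) and GANAB (0.927) for LAMC1, and SOCS3 (0.884) and SH3TC1 (0.841) for LAMA1. For LAMA5 they were PTDSS2 (0.948) and GGT7 (0.927), for LAMB1 SNHG32 (0.94) and ADPRM (0.937), and for LAMB2 CCDC57 (0.977) and TCF25 (0.973). LAMA2 had the weakest likeness, with PKD1P1 (0.752) and HTT (0.74). No gene was the nearest of more than 1 member, and none of the members was among the 2 nearest of another.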

How the data were processed

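RNA of 18 libraries (6 groups of 3) was measured. The protocol names a stranded kit with removal of ribosomal RNA, whereas polyA RNA is given in the labels and in the heading of the methods, and which applied is not known. Reads were pseudo-aligned by the authors to the hg38 transcriptome with kallisto 0.46.1, collapsed to genes by tximport and normalized by DESeq2 1.26.0. The values deposited are such normalized counts, that is, a signal without whole reads and without a length scale. They covered 35933 genes, and 24646 further lines held no gene ID (7 of them hold a stray number). Symbols were matched for 35894 genes, and of genes sharing a symbol (294) the row with the higher mean was used. Library sums lay between 21347352 and 31681834. Only 7.9% to 31.6% of low values were whole multiples (tolerance 0.011) of a library's most frequent low value, 0.81 to 1.77, so reads were not recovered, no counting interval can be given and gene depth is unknown.

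Tests were run with limma 3.58.1 in R 4.3.3 (lmFit, eBayes, intensity trend) on log2(normalized count + 1), keeping genes whose mean in a fit reached 10. They were two-sided and adjusted by the Benjamini-Hochberg method over all genes tested, with a threshold of 0.05. Fold changes on this scale understate those of low genes. The scripts were tested on simulated data. Each line was fitted alone, interactions in 1 fit of 18 libraries and controls in a fit of 9. Alternatives were pseudocounts of 0.5 and 5, no filter, a minimum mean of 50, no trend, median-of-ratios rescaling, equal sums, a replicate block, a joint fit, and each library left out. Same-letter libraries of control and labelled knockdown deviated together from their group means in MCF10A (r = 0.221, 0.200 and 0.116 for a, b and c over 15897 genes) and MCF10AT1 (0.110, 0.289 and 0.477), so the letters were taken to pair there. In MCF10CA1H (-0.011, 0.017 and 0.046) they were not. The pairing comes from this check, not from the labels. In MCF10AT1 labelled knockdown a deviated more with control b (0.251) than with control a (0.110). The pairing of a and b in that line is thus uncertain, and so are the results there that use it. Python 3.11.15, pandas 2.3.3 and NumPy 2.4.6 served for the remaining values.

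All 9 members are named in every comparison. From each further list, the marker lists included, the 3 called genes with the largest change in each line are named, and for each member the 2 genes most like it. The genes of those lists given by library, and the further markers given by name, were chosen for print after their values were seen. One item of a list is not reported here. The members and lists were chosen with earlier results of these data known.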

Additional observations from a re-analysis of the deposited data

Results flagged for a closer look

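The effect of the METTL3 construct differed between lines by the interaction contrast of limma for 3 members, with effects given as log2 fold changes over control. LAMA4 differed by 3.39 between MCF10AT1 and MCF10A (adjusted p = 4.72e-05) and by -3.93 between MCF10CA1H and MCF10AT1 (adjusted p = 1.02e-05). LAMC1 differed by 1.60 (adjusted p = 0.00112) and -1.65 (adjusted p = 0.00106) in the same contrasts. LAMB1 differed by 0.94 between MCF10AT1 and MCF10A (adjusted p = 0.0248), with its values below control in MCF10A. Each group is 1 clone, so a difference between lines and one between clones cannot be told apart. Groups of 3 libraries were too small for a test of single outlying libraries.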

How the results depend on the processing

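The number of members called moved by more than 1.5 times with no filter on low values, with the replicate block and with some single libraries left out. With no filter on low values it was 0 in place of 1 in MCF10A and in MCF10CA1H, and 3 in place of 5 for control MCF10CA1H against MCF10AT1. With the replicate block it was 2 in place of 1 in MCF10A. The block also changed the call of LAMB2 in MCF10AT1 and in the contrast of MCF10CA1H with MCF10AT1, and no other member's call. In MCF10CA1H and between controls the letters do not pair the libraries. With 1 library left out, the count was 0 to 1 in MCF10A, 2 to 3 in MCF10AT1 and 1 in MCF10CA1H, 2 to 3 for the effect of MCF10AT1 against MCF10A, 1 to 6 for control MCF10AT1 against MCF10A, and 2 to 6 for control MCF10CA1H against MCF10AT1. The share of all genes called moved too, from 10.6% (without MCF10A control b, 1 member) to 52.1% (without MCF10AT1 control c, 6 members) in the former, and from 10.2% (without MCF10CA1H control b, 2 members) to 35.8% (without MCF10AT1 control c, 5 members) in the latter. It was 0.337% to 9.20% in MCF10A, 6.35% to 15.2% in MCF10AT1 and 7.20% to 11.8% in MCF10CA1H. The share of all genes called fell from 2.65% to 0.326% in MCF10A, from 13.0% to 3.89% in MCF10AT1 and from 12.8% to 1.69% in MCF10CA1H with no filter, which tests more genes. It was 7.60% and 24.5% with the replicate block in MCF10A and MCF10AT1, and 32.4% in MCF10AT1 and 1.56% in MCF10CA1H in the joint fit. Without the intensity trend it was 1.54% in MCF10A and 7.42% in MCF10CA1H.

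Sign changes were seen for members that were not called. Equal sums turned LAMB2 in MCF10CA1H to -0.048, LAMA5 in the effect of MCF10CA1H against MCF10A to -0.095, LAMB1 in the effect of MCF10CA1H against MCF10AT1 to 0.095 and LAMB1 in control MCF10AT1 against MCF10A to -0.032. It moved the median of all genes from -0.004 to -0.260, -0.027 to -0.173 and -0.011 to 0.096 in the 3 effect contrasts, and from -0.014 to -0.153 and 0.047 to 0.161 for control MCF10AT1 against MCF10A and MCF10CA1H against MCF10AT1. With 1 library left out, log2 fold changes over control ranged from -0.58 to 0.63 for LAMA2 and -0.061 to 0.308 for LAMA5 in MCF10A, and from -0.12 to 0.10 for LAMB2 in MCF10CA1H. Differences of effect ranged from -0.346 to 0.077 (LAMA1), -0.14 to 1.11 (LAMA2), -0.081 to 0.288 (LAMA5) and -0.19 to 0.11 (LAMC1) for MCF10CA1H against MCF10A, from -0.066 to 1.988 (LAMA2) for MCF10AT1 against MCF10A, and from -1.64 to 0.41 (LAMA2) and -0.21 to 0.19 (LAMB1) for MCF10CA1H against MCF10AT1. Control contrasts ranged from -0.01 to 0.31 (LAMB1, MCF10AT1 against MCF10A), -0.22 to 0.24 (LAMB2, MCF10CA1H against MCF10A) and -0.25 to 1.68 (LAMA2, MCF10CA1H against MCF10AT1). The causes of these changes were not tested. Low values limit what can be said of the nidogens and LAMA2.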
